A study of Mus musculus with 30 samples.

Results

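A set of 10 transcription factor genes of somites and paraxial mesoderm (Meox1, Meox2, Tcf15, Pax3, Foxc1, Foxc2, Pax1, Uncx, Tbx18 and Myf5) was followed through an in vitro differentiation of mouse embryonic stem cells (ESCs) towards neuromesodermal progenitors (NMPs), in wildtype and Nr6a1-/- cells. The 10 genes were taken by name from a count table of 54134 gene rows, and all 10 were found. Of these, 5 (Meox1, Tcf15, Pax3, Foxc1 and Foxc2) were among the 12149 genes expressed strongly enough to be tested, and the other 5 were not. RNA was measured by sequencing the 3′ end of polyadenylated transcripts in 30 libraries, 3 replicates for each of 10 groups, with 1570714 to 3688197 counts per library and a median of 2366002.

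All cells were of the Bruce4 ESC line, which was maintained on mouse embryonic fibroblast feeders. The d2 groups received FGF2 for 48 h. Wnt signalling was then activated with the agonist CHIR99021 (CHIR), FGF2 being kept, for 12 h in the d2.5 groups and 24 h in the d3 groups. The d3 cells were continued in FGF2 and CHIR for a further 24 h in the d4 groups, or in FGF2, CHIR and Gdf11, a TGF-beta family ligand, for 24 h in the d4G groups. Nr6a1-/- cells were 1 clone with separate deletions in exon 4 of each allele, so clone and genotype cannot be told apart. Nr6a1, which encodes an orphan nuclear receptor, was itself found at 96.9 CPM (counts scaled to a common library total) in d4 wildtype and at 221 CPM in d4 Nr6a1-/- cells, but counts from the 3′ end lie outside the deleted exon and do not check the genotype.

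Paraxial mesoderm forms on both sides of the neural tube and is cut into somites, which give rise to vertebrae, skeletal muscle and dermis. Progenitors leave the tailbud, switch on the T-box factor Tbx6, pass through the Notch-driven segmentation clock of the presomitic mesoderm, and then, as somites form, express Meox1, Tcf15 and Foxc1/2. Uncx and Tbx18 next mark the posterior and anterior parts of each somite, Pax1 the ventral sclerotome and Pax3 the dorsal dermomyotome, while Myf5 opens the muscle programme. In the embryo Pax3 is also expressed in the dorsal neural tube and Tcf15 in epiblast, so neither is restricted to mesoderm.

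In mouse assembly GRCm38, the tested genes lie at chr11:101877510-101894374 (Meox1, minus strand), chr2:152143561-152149097 (Tcf15, plus strand), chr1:78101267-78197134 (Pax3, minus strand), chr13:31806633-31812476 (Foxc1, plus strand) and chr8:121116171-121118895 (Foxc2, plus strand). RefSeq promoter sequence was matched for 6 of the 10 genes: Meox2, Foxc1, Pax1, Uncx, Tbx18 and Myf5. No entry was matched for Meox1, Tcf15, Pax3 and Foxc2. Among the 6, the promoters of Foxc1 and Uncx had the same ratio of observed to expected CG dinucleotides, 0.943, against a median of 0.384 over 32851 promoters. In d4 wildtype, however, Foxc1 had 273 pooled counts and Uncx 6. Both promoters are shown for that contrast, 5′ to 3′, as windows around the RefSeq start (GRCm38.p6), with CG dinucleotides in capitals (32 in Foxc1, 26 in Uncx). The Foxc1 window is chr13:31806396-31806695 and the Uncx window chr5:139543648-139543947, both on the plus strand.
Foxc1: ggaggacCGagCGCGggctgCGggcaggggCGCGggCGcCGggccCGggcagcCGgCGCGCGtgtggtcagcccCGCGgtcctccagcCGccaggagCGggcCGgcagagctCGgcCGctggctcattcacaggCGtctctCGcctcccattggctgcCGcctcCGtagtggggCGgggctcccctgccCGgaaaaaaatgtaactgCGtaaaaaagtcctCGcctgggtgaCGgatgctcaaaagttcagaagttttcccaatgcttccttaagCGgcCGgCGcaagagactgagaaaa
Uncx: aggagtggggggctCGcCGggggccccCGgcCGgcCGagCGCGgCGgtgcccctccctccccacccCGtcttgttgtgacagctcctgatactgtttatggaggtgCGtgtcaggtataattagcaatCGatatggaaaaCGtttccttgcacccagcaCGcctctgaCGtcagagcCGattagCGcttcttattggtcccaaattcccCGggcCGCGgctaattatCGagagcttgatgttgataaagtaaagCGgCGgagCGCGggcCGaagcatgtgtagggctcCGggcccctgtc
Ratios in the other 4 promoters were 0.435 (Meox2), 0.639 (Pax1), 0.755 (Tbx18) and 0.163 (Myf5). The letters TCAAGGTCA, a form of the site bound by Nr6a1, and AGGTGTGA, a T-box half-site, were searched on both strands and were in none of the 6 windows. They were in 0.423% and 1.28% of all promoters of that length.

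The 3 libraries per group were compared with edgeR's quasi-likelihood test in a single model of all 30 libraries, and a gene was called at a false discovery rate (FDR) below 0.05 over all 12149 genes. Levels are CPM after TMM scaling, fold changes are log2, and errors on them are standard errors. A library's limit for a gene with a count of 0 (3 counts) was 0.813 to 1.91 CPM; such limits, like the intervals given for ratios of pooled counts, cover counting error only. Since these are bulk cultures, fewer cells of a type and less RNA per cell cannot be told apart. A single library stood apart: d4 wildtype replicate 2 held 632 CPM summed over 5 epiblast genes, against 86.7 to 100.5 CPM in the other 5 d4 libraries, and calls at d4 that were lost without it are marked.

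**Figure D1:**
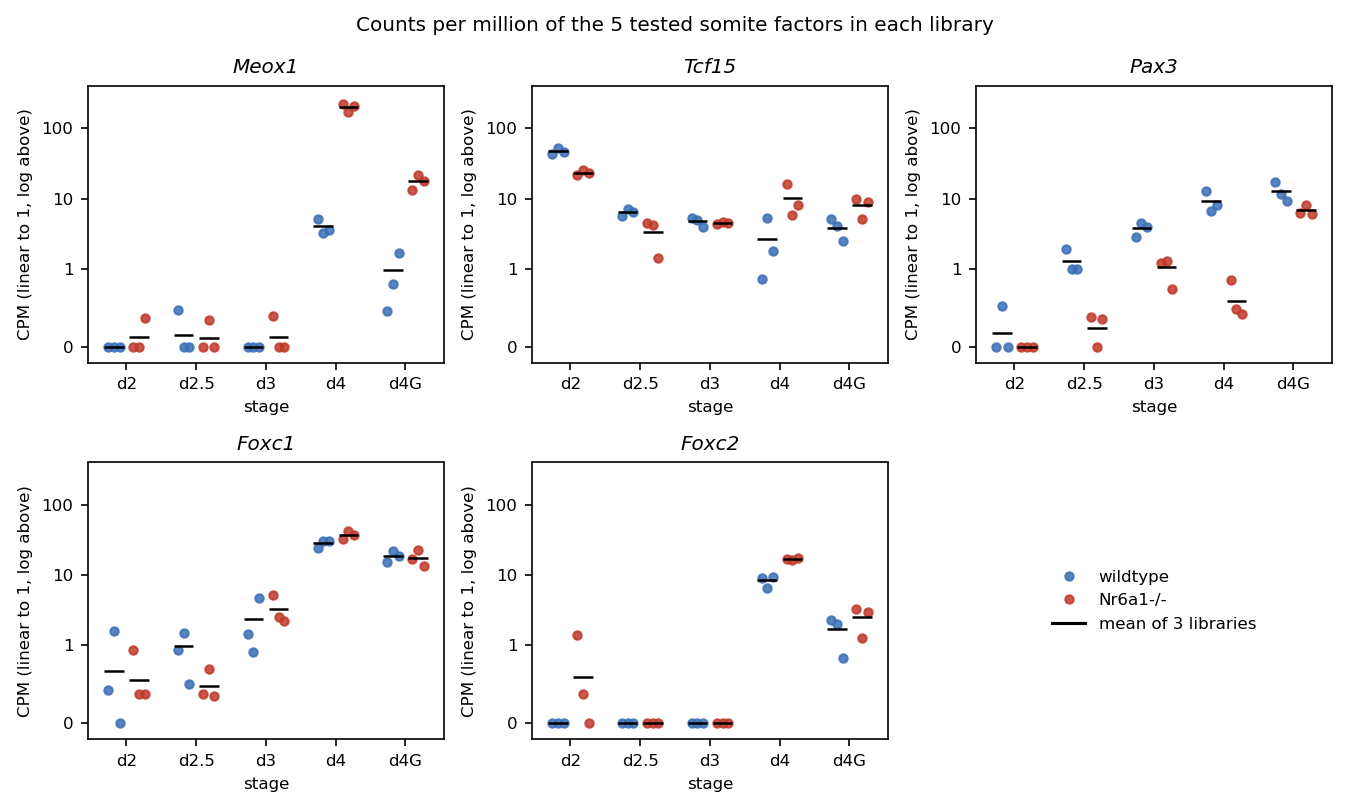
CPM of the 5 tested genes in each library (vertical axis linear to 1 and logarithmic above) by stage (horizontal axis), wildtype in blue and Nr6a1-/- in red, with black bars for the mean of 3 libraries. Meox1 at d4 ranged from 168 to 225 CPM in Nr6a1-/- cells and from 3.29 to 5.19 CPM in wildtype, and Pax3 at d4 lay the other way round.

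Meox1, a homeobox factor of early somites, showed the widest separation of genotypes among the 10 genes. It had between 0 and 1 count in every library of d2, d2.5 and d3. At d4 it was counted at 5.19, 3.29 and 3.58 CPM in wildtype libraries and at 225, 168 and 207 CPM in Nr6a1-/- libraries. The means were 4.02 ± 1.03 CPM (SD, n = 3) and 200 ± 28.8 CPM (SD, n = 3), and the groups were far apart. The edgeR log2 fold change of Nr6a1-/- over wildtype was 5.67 ± 0.21 (FDR = 3.55e-20), and it stayed between 5.53 and 5.87 in 14 alternative analyses, including each one that left out a library. From d3 to d4, Meox1 went from 0 to 36 pooled counts in wildtype cells, at least 6.76-fold higher by the 95% counting interval. In Nr6a1-/- cells it went from 1 to 1362 pooled counts, a ratio of 1520 (95% counting interval 273 to 60200). Both rises were called by edgeR, with FDR = 2.23e-05 and FDR = 7.06e-21. A difference between the rises could not be estimated usefully by the model, because wildtype d3 had no count.

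With Gdf11, Meox1 was lower in both genotypes. The d4G wildtype libraries held 0.462, 0.806 and 1.67 CPM and the d4G Nr6a1-/- libraries 13.4, 21.5 and 17.9 CPM, so the genotypes again did not overlap. Relative to d4, Meox1 fell by 1.91 ± 0.52 on the log2 scale in wildtype cells (edgeR FDR = 0.00584) and by 3.53 ± 0.18 in Nr6a1-/- cells (edgeR FDR = 7.89e-17). The wildtype fall was not called when all libraries were thinned to the smallest total (FDR = 0.152), as it rests on 7 pooled counts at d4G. The larger fall in Nr6a1-/- cells was not called as different from that in wildtype, the difference being -1.62 ± 0.73 (edgeR FDR = 0.279). At d4G Meox1 remained higher in Nr6a1-/- cells by 4.05 ± 0.40 (edgeR FDR = 5.61e-09), 17.6 ± 4.07 against 0.981 ± 0.62 CPM (SD, n = 3). The gene Gm11551, which lies within Meox1 on the opposite strand, had 5 counts over all 30 libraries.

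Tcf15 (paraxis), a basic helix-loop-helix factor needed for somites to become epithelial, was highest before any Wnt activation. At d2 its levels were 42.5, 52.2 and 45.8 CPM in wildtype and 22.0, 25.3 and 23.0 CPM in Nr6a1-/- libraries, 2 groups that did not overlap. The log2 fold change was -0.99 ± 0.22 (edgeR FDR = 0.00397). The sum of 5 epiblast genes at d2 was 2279 to 2334 CPM in wildtype and 3009 to 3074 CPM in Nr6a1-/- libraries. In the main edgeR model 0 of the 5 were called (1 at an unadjusted p below 0.05), and with DESeq2 0. Without the filter, and also with only the libraries compared, edgeR called 2 of them higher in Nr6a1-/- cells. By d2.5 Tcf15 had dropped in both genotypes, the ratio of pooled counts to d2 being 0.138 in wildtype (95% counting interval 0.0964 to 0.193) and 0.143 in Nr6a1-/- cells (0.0925 to 0.214). At d2.5 it was 6.42 ± 0.70 and 3.39 ± 1.71 CPM (SD, n = 3; edgeR FDR = 0.23), and at d3 the genotypes overlapped at 4.76 ± 0.69 and 4.50 ± 0.15 CPM.

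At d4 the order of the genotypes was the reverse of that at d2 for Tcf15. Wildtype libraries held 0.866, 5.21 and 1.79 CPM and Nr6a1-/- libraries 16.3, 5.77 and 8.04 CPM. The highest wildtype value, which came close to the lowest Nr6a1-/- value, was in the library with the raised epiblast genes; the part of those cells in its Tcf15 level was not tested. The log2 fold change was 1.80 ± 0.39 (edgeR FDR = 6.84e-04), 2.80 without d4 wildtype replicate 2 (FDR = 3.34e-05) and 1.25 without d4 Nr6a1-/- replicate 1 (FDR = 0.0312). Between d3 and d4 Tcf15 rose in Nr6a1-/- cells by 1.17 ± 0.37 (edgeR FDR = 0.0169), a call lost without d4 Nr6a1-/- replicate 1 (0.62, FDR = 0.281). In wildtype cells the change was -0.70 ± 0.46 (FDR = 0.294), and -1.69 without d4 wildtype replicate 2 (FDR = 0.0267). The difference between these changes was 1.87 ± 0.59 with an edgeR FDR of 0.052, and it was called in 6 of 20 alternatives, with 2.86 (FDR = 0.00543) without d4 wildtype replicate 2 and 2.13 (FDR = 0.026) without d4 Nr6a1-/- replicate 2. With Gdf11, Tcf15 averaged 3.87 ± 1.29 CPM in the wildtype libraries against 8.01 ± 2.61 CPM in the Nr6a1-/- libraries (SD, n = 3; edgeR FDR = 0.108), and neither genotype changed by a called amount from d4.

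Pax3, a paired-box factor of the dermomyotome and of dorsal neural tissue, was the only tested gene of the set that was lower in Nr6a1-/- cells at d4. In wildtype cells its mean was higher at each stage than at the one before, from 0.176 ± 0.30 CPM at d2 through 1.30 ± 0.51 at d2.5 and 3.80 ± 0.86 at d3 to 9.20 ± 3.35 at d4 (SD, n = 3). The wildtype rise from d3 to d4 was 1.21 ± 0.34 (edgeR FDR = 0.0103); it was not called without d3 wildtype replicate 1 (FDR = 0.0597), without d4 wildtype replicate 1 (FDR = 0.0796) or after thinning (FDR = 0.15). In Nr6a1-/- cells Pax3 never passed 1.27 CPM in a library before Gdf11 was added. At d3 the log2 fold change between genotypes was -1.81 ± 0.53 (edgeR FDR = 0.0229). That call was lost without d3 wildtype replicate 2 or 3 or d3 Nr6a1-/- replicate 1 or 3 (FDR = 0.0841, 0.0701, 0.0536 and 0.0916), and also with DESeq2, without the filter and after thinning.

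At d4 the difference in Pax3 was far larger. Wildtype libraries held 13.0, 6.58 and 8.05 CPM and Nr6a1-/- libraries 0.860, 0.481 and 0.423 CPM, with no overlap. The log2 fold change was -3.80 ± 0.51 (edgeR FDR = 5.83e-07), and between -4.17 and -3.52 in 14 alternatives, all of which called it. The gap was smaller with Gdf11. In Nr6a1-/- cells Pax3 went to 6.21, 8.22 and 5.96 CPM at d4G, a rise of 3.39 ± 0.56 (edgeR FDR = 2.47e-05), whereas wildtype cells had 17.1, 11.7 and 9.21 CPM and a change of 0.50 ± 0.28 that was not called (FDR = 0.182). The responses to Gdf11 differed by 2.89 ± 0.65 (edgeR FDR = 0.00794), which was called in 19 of 20 alternatives, the exception being thinning to the smallest total (2.78, FDR = 0.127). At d4G Pax3 was 0.91 ± 0.31 lower in Nr6a1-/- cells on the log2 scale (FDR = 0.07; called without d4G wildtype replicate 3, -1.10, FDR = 0.0361), and all 3 Nr6a1-/- libraries were below all 3 wildtype libraries.

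Neural tube markers were, like Pax3, lower in Nr6a1-/- cells at d4, but their sum was lower there already at d2. At d2 it was 55.5 to 68.3 CPM in wildtype and 30.1 to 36.5 CPM in Nr6a1-/- libraries, with Pax3 at means of 0.176 and 0 CPM. Of the 6 genes in that sum, 2 were called lower and 0 higher at d2, against 2.72% and 1.35% of all tested genes. The count was 0 without chromosome 8, where Sox1 and Irx3 lie, and 0 with DESeq2. Olig2, 1 of the 2 called, lost its call in 8 of 13 alternatives. Of 6 neural tube genes, all 6 tested, 4 were lower and 0 higher in Nr6a1-/- cells at d4, against 9.17% and 9.72% of all tested genes. Among the 4 were Irx3 (-3.85 ± 0.42, edgeR FDR = 5.03e-09) and Zic1 (-2.29 ± 0.29, FDR = 1.62e-07), both patterning factors of the neural tube. The count was 2 without d4 wildtype replicate 2 or any 1 of the d4 Nr6a1-/- libraries, with DESeq2, without the filter, and with only the libraries compared, which left 3 of the 6 tested. Irx3 and Sox1 (0.44 against 1.86 CPM, FDR = 0.043), 2 of the 4 called, lie on chromosome 8, which was lowered as a block in the clone (described with Foxc2), and without that chromosome 2 of 4 tested genes were called. Without d4 wildtype replicate 2 the differences were -3.91 for Irx3 and -2.35 for Zic1, both called. The summed level of the 6 genes was 37.6 to 48.0 CPM in d4 wildtype and 6.02 to 13.5 CPM in d4 Nr6a1-/- libraries. With Gdf11 the sum was 12.9 to 17.1 CPM in Nr6a1-/- libraries and 27.2 to 37.9 CPM in wildtype, and 0 of the 6 genes were called as responding to Gdf11 in Nr6a1-/- cells by edgeR or DESeq2 (0 also at an unadjusted p below 0.05). In wildtype 1 of the 6 was called higher and 3 lower with Gdf11 (2 lower without d4 wildtype replicate 2). Over all tested genes, Gdf11 raised 14.3% and lowered 14.5% in wildtype, and raised 8.45% and lowered 9.59% in Nr6a1-/- cells. Neural crest, which also expresses Pax3 in the embryo, was checked by 5 genes, of which 3 were tested and 1 was called higher with Gdf11 in each genotype and 1 lower in wildtype (0 lower without d4 wildtype replicate 2 or any 1 of the d4G wildtype libraries). Their sum was 11.8 to 13.0 CPM at d4 and 42.3 to 50.8 CPM at d4G in wildtype, and 7.31 to 13.0 CPM and 65.2 to 75.9 CPM in Nr6a1-/- libraries. Sox10, 1 of the 5, stayed at or below 2.42 CPM in every d4 and d4G library, so the rise in the sum came from other genes of the list. The part of neural and crest cells in the Pax3 values was not tested.

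Foxc1 and Foxc2, forkhead factors that act together in forming somites, were switched on between d3 and d4 in both genotypes. Foxc1 was at or below 1.58 CPM in every library of d2 and d2.5 and averaged 2.37 ± 2.09 CPM at d3 in wildtype libraries and 3.32 ± 1.63 CPM in those of Nr6a1-/- cells (SD, n = 3). At d4 it reached 24.7, 30.7 and 31.0 CPM in wildtype and 33.1, 41.8 and 37.6 CPM in Nr6a1-/- libraries. The rise was 3.52 ± 0.32 in wildtype (edgeR FDR = 1.59e-10) and 3.48 ± 0.29 in Nr6a1-/- cells (FDR = 1.1e-11), and the difference between the rises was -0.03 ± 0.46 (FDR = 0.985), so that a difference of the size of its standard error was not resolved. All 3 Nr6a1-/- libraries lay above all 3 wildtype libraries at d4, but by 0.37 ± 0.20 on the log2 scale, which was not called (FDR = 0.211). With Gdf11 Foxc1 fell by 0.63 ± 0.22 in wildtype (FDR = 0.026) and by 1.11 ± 0.23 in Nr6a1-/- cells (FDR = 4.12e-04), to 18.6 ± 3.47 and 17.7 ± 4.65 CPM. The wildtype fall was not called without d4 wildtype replicate 2 or 3 or d4G wildtype replicate 1 or 3 (FDR = 0.0823, 0.0813, 0.122 and 0.0739), nor in 3 further alternatives.

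Foxc2 was at a count of 0 in every library of d2.5 and d3. At d4 it was at 9.09, 6.58 and 9.54 CPM in wildtype and at 17.2, 16.3 and 17.3 CPM in Nr6a1-/- libraries, without overlap. Against 3 counts over each d3 group, the d4 levels were at least 18.7-fold higher in wildtype and at least 42.9-fold higher in Nr6a1-/- cells. The genotypes differed by 1.02 ± 0.28 at d4 (edgeR FDR = 0.0116), a call lost without d4 wildtype replicate 2 (0.85, FDR = 0.0699), with DESeq2 (FDR = 0.0645) and after thinning (0.86, FDR = 0.144). With Gdf11 Foxc2 fell by 2.25 ± 0.43 in wildtype (FDR = 2.4e-04) and by 2.66 ± 0.38 in Nr6a1-/- cells (FDR = 7.42e-06), and its d4G levels of 1.72 ± 0.78 and 2.53 ± 1.11 CPM (SD, n = 3) overlapped.

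Foxc2 is the one gene of the set on chromosome 8, whose genes were lower as a block in the Nr6a1-/- clone. At d4 the 655 tested genes of chromosome 8 had a median log2 fold change of -0.292 and 73.6% of them were below 0, against a median of 0.0342 and 46.4% for 11372 genes placed elsewhere. At d2, with a median of -0.375, the share was 88.7%. Foxc2 was 1.32 above the chromosome's median at d4, with 15 of the 655 genes above it, and was 1 of 25 genes of chromosome 8 called higher. Whether the lowering of the block also acted on Foxc2 was not tested.

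**Figure D2:**
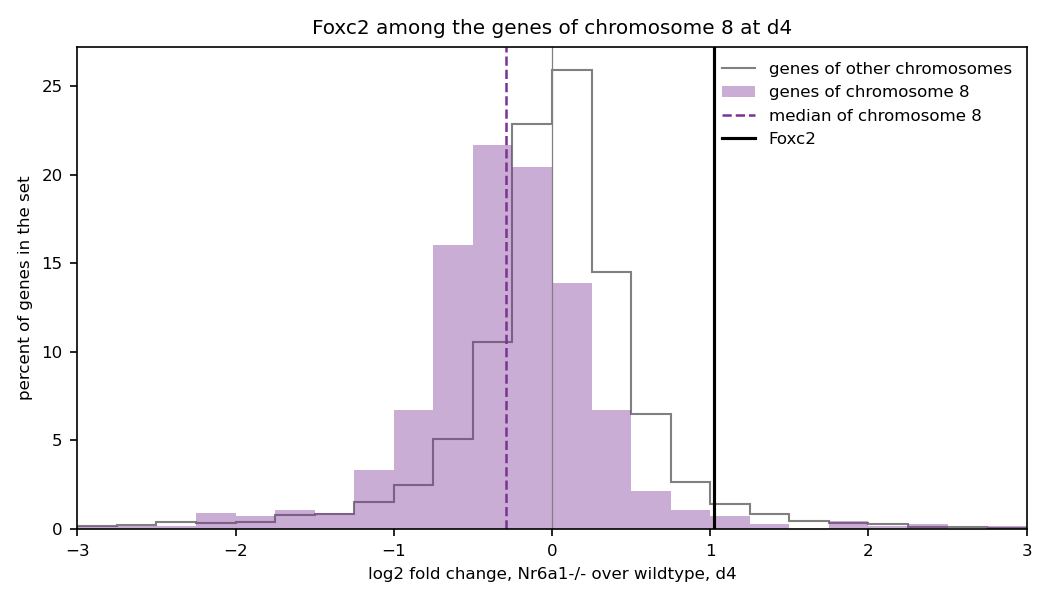
Distribution of log2 fold changes of Nr6a1-/- over wildtype at d4 (horizontal axis) as a percentage of genes in each set (vertical axis), for 655 genes of chromosome 8 (purple) and 11372 genes of other chromosomes (grey line), between -3 and 3. The dashed line is the median of chromosome 8 at -0.292 and the black line is Foxc2 at 1.02.

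Only the 5 tested genes of the set could be called, and the percentages beside their counts are of all tested genes called in either direction. Between genotypes, 1 of the 5 was called at d2 (Tcf15, lower, against 4.07%), 0 at d2.5 (6.45%) and 1 at d3 (Pax3, lower, 10.8%). At d4 the number was 4 (Meox1, Tcf15 and Foxc2 higher, Pax3 lower, 18.9%), and at d4G it was 1 (Meox1, higher, 7.92%). At d2 the unadjusted edgeR p was below 0.05 for Foxc2 as well, which rested on 4 pooled counts. At d2.5 the unadjusted edgeR p was below 0.05 for 2 genes, Pax3 and Tcf15, both lower in all 3 Nr6a1-/- libraries than in any wildtype library. DESeq2 called 0 of the 3 genes for which it gave an adjusted p at d2.5, Pax3 not being one of them. Gdf11 lowered 3 genes in wildtype (Meox1, Foxc1 and Foxc2; 28.8% called), lowered the same 3 and raised Pax3 in Nr6a1-/- cells (18% called), and the response differed between genotypes for 1 (Pax3; 2.66%). From d3 to d4, 4 genes rose in wildtype (Meox1, Pax3, Foxc1 and Foxc2; 21.1%) and 4 in Nr6a1-/- cells (Meox1, Tcf15, Foxc1 and Foxc2; 25.9%), and 0 were called as differing (5.72%; 2 at an unadjusted p below 0.05, and 1, Tcf15, by DESeq2). The comparisons at d4, for Gdf11 and from d3 to d4 share the d4 libraries and are not independent. Meox1, Pax3, Foxc1 and Foxc2 passed the filter only through d4 or d4G groups, and Foxc2 only through d4. Their being tested thus depended on their level at those stages. The counts from d3 to d4 and for Gdf11 were favoured by this, and the shares of all tested genes are not a like measure for them.

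**Figure D3:**
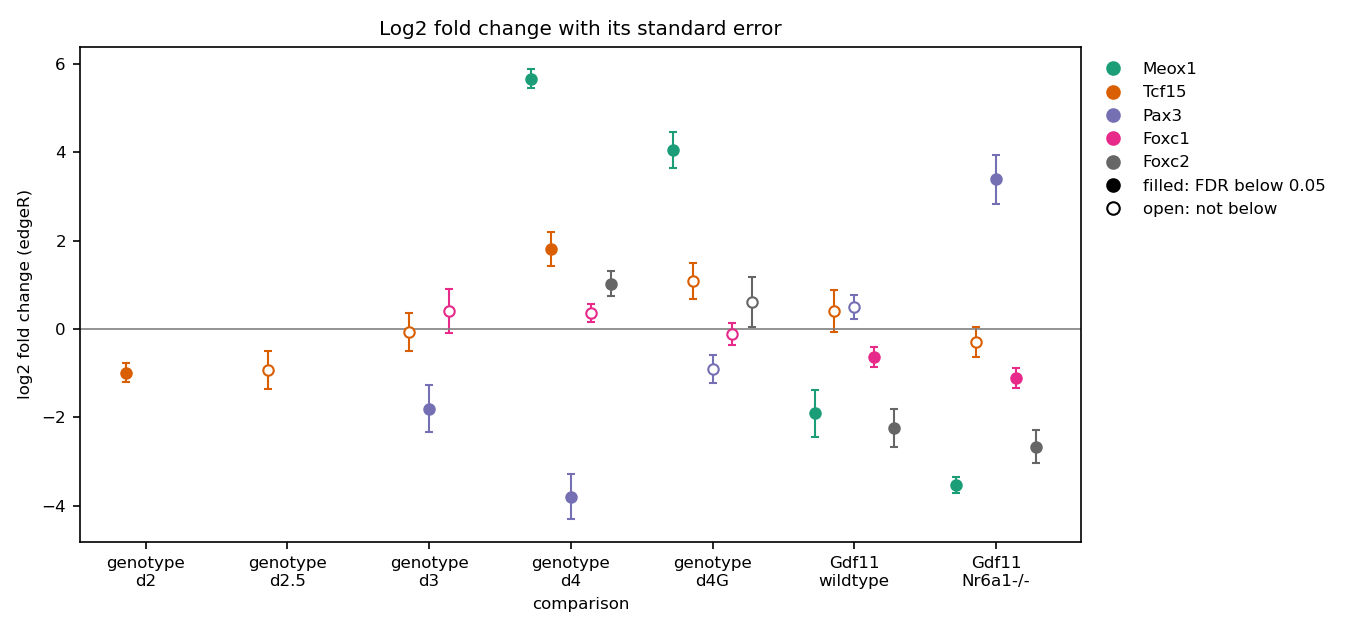
The edgeR log2 fold changes with standard errors (vertical axis) for Nr6a1-/- over wildtype at 5 stages and for d4G over d4 in each genotype (horizontal axis). Filled points passed FDR below 0.05, and comparisons with a count of 0 in a group or under 10 counts in both are left out; Meox1 stands at 5.67 and Pax3 at -3.80 at d4.

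The later somite factors other than Pax3 and Myf5 were close to absent. Meox2, a homeobox partner of Meox1, had 1 count in all 30 libraries, Pax1 14 counts with at most 3 in a library, Uncx 18 with at most 2 and Tbx18 27 with at most 5. Tbx18 had most of these at d2.5, with 0, 2 and 3 counts in wildtype and 1, 5 and 5 in Nr6a1-/- libraries. At d4 Uncx had 2 counts in each wildtype library and 0 in each Nr6a1-/- library, numbers too small to be tested. Uncx, Tbx18 and the sclerotome marker Pax1 were thus at or near 0 in the cells where Meox1 reached 200 CPM. Within the set, the somite identity in its name rested in these cells on Meox1, Foxc1 and Foxc2, which rose from d3 to d4 in both genotypes. Tcf15, which was highest at d2, and Pax3 are not restricted to mesoderm and do not settle it. Sox9, a gene outside the set that sclerotome and neural cells express, was counted in these cells and is given below.

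Myf5, the first of the myogenic regulators, was the exception among the low genes. Its 41 counts were concentrated in d4G, with 1, 2 and 8 counts in wildtype and 10, 4 and 4 counts in Nr6a1-/- libraries. At d4 there were 4 counts in wildtype and 0 in Nr6a1-/- cells. By the 95% counting interval, the d4G level was at least 4.94-fold higher than at d4 in Nr6a1-/- cells. In wildtype the ratio was 3.64 (95% counting interval 1.08 to 15.7). Between genotypes at d4G the ratio was 1.91 (0.855 to 4.48). Myf5 was below the filter, and these ratios carry no replicate test.

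**Figure D4:**
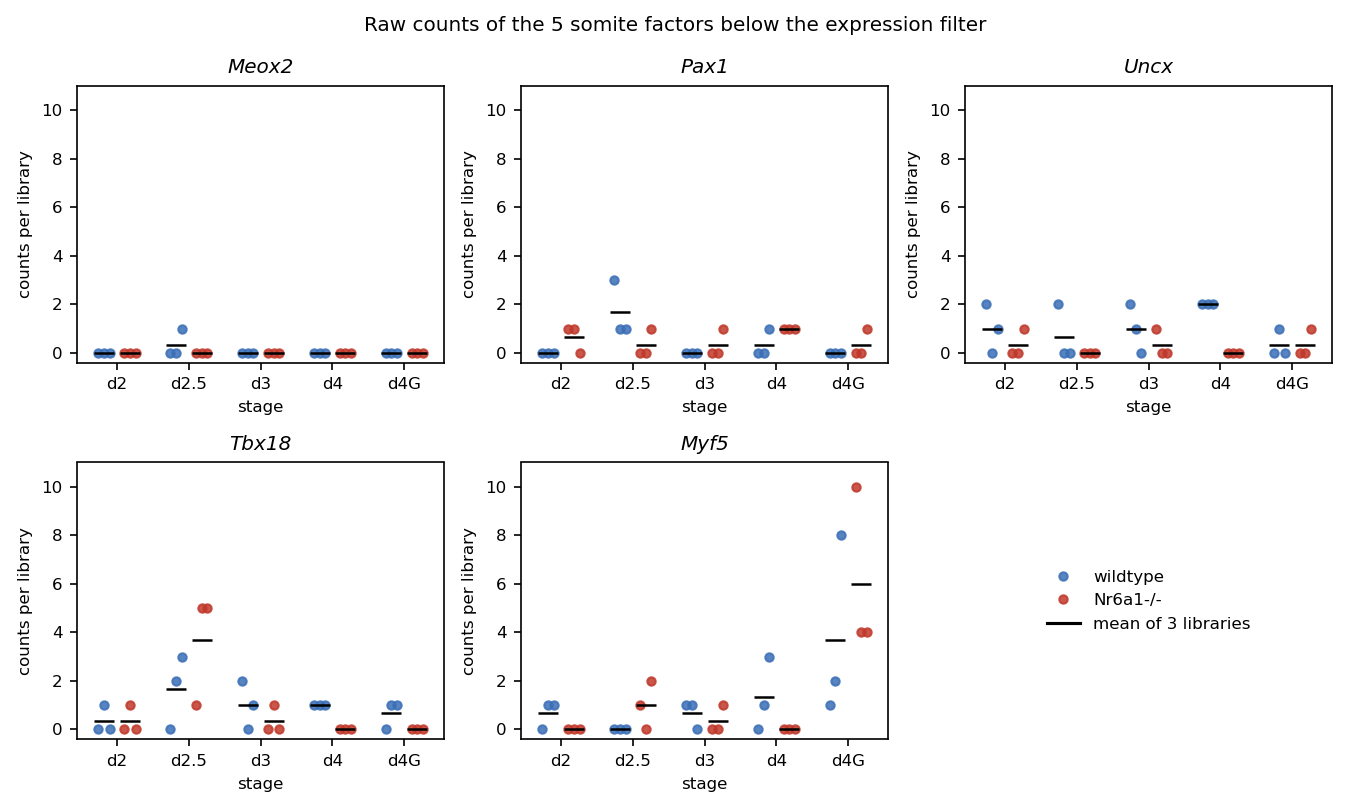
Raw counts in each library (vertical axis) of the 5 genes below the filter, by stage (horizontal axis), wildtype in blue and Nr6a1-/- in red, with black bars for means of 3 libraries. Myf5 reached 8 to 10 counts in single d4G libraries, and no other gene passed 5.

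Presomitic genes, upstream of the set in development, were higher in Nr6a1-/- cells from d3 on. Of 10 presomitic genes 7 were tested, and 3 were called higher at d3, 6 at d4 and 2 at d4G, with 0 lower at each of these stages. Of all tested genes, 4.49%, 9.72% and 3.28% were called higher at d3, d4 and d4G. The list's median log2 fold change at d4 was 0.993 against 0.0183 over all tested genes. At d4 Tbx6, the T-box factor of paraxial fate, went from 95.1 to 189 CPM (0.99 ± 0.11, edgeR FDR = 1.86e-08), Dll1, a Notch ligand, from 124 to 217 CPM (0.81 ± 0.13, FDR = 9.22e-06) and Lfng, a modifier of Notch, from 10.8 to 22.7 CPM (1.08 ± 0.26, FDR = 0.00267). At d3 Tbx6 was already 1.00 ± 0.19 higher (FDR = 4.27e-04), a call lost after thinning (FDR = 0.0659). The clock gene Hes7 fell with Gdf11 by 3.53 ± 0.17 in wildtype and by 3.40 ± 0.16 in Nr6a1-/- cells, and 0 of the 7 presomitic genes differed in their response by edgeR or DESeq2 (1 at an unadjusted p below 0.05). All 3 of Tbx6, Dll1 and Lfng were called at d4 without d4 wildtype replicate 2.

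Genes of somite signalling and adhesion were divided. All 8 were tested, and at d4 Nr6a1-/- cells had more of 4 and less of 2, against 9.72% and 9.17% of all tested genes. Aldh1a2, which makes retinoic acid in somites, had the largest change, 373 against 11.9 CPM (4.96 ± 0.17, FDR = 1.22e-22), with called differences at d3 (1.35 ± 0.24, FDR = 1.63e-04) and d4G (2.37 ± 0.30, FDR = 2.7e-07). Like Meox1 it fell with Gdf11, by 1.52 ± 0.31 in wildtype and 4.11 ± 0.16 in Nr6a1-/- cells, and for Aldh1a2 the responses differed (-2.59 ± 0.42, FDR = 1.37e-04). Fst, an antagonist of activin and Gdf11, was 62.1 against 7.28 CPM at d4 (3.05 ± 0.16, FDR = 1.97e-17); with Gdf11 it rose by 2.48 ± 0.16 in wildtype, and the response differed by -3.40 ± 0.21 (FDR = 7.99e-14). Cdh11, an adhesion gene, rose with Gdf11 by 2.55 ± 0.26 and 3.21 ± 0.39. Cdh11, Fgfr1 and the neural gene Irx3 lie on chromosome 8.

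Of 16 genes of somite derivatives only 4 were tested. Sox9, a sclerotome and cartilage factor that neural cells also express, was higher in Nr6a1-/- cells at d4 (18.0 against 10.2 CPM, edgeR FDR = 0.0234, lost without d4 wildtype replicate 1 or 2 or d4 Nr6a1-/- replicate 1 or 3, with 0.0582 to 0.124) and lower at d4G (17.3 against 41.3 CPM, FDR = 2.38e-04), and its response to Gdf11 differed by -2.06 ± 0.35 (FDR = 2.45e-04).

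**Figure D5:**
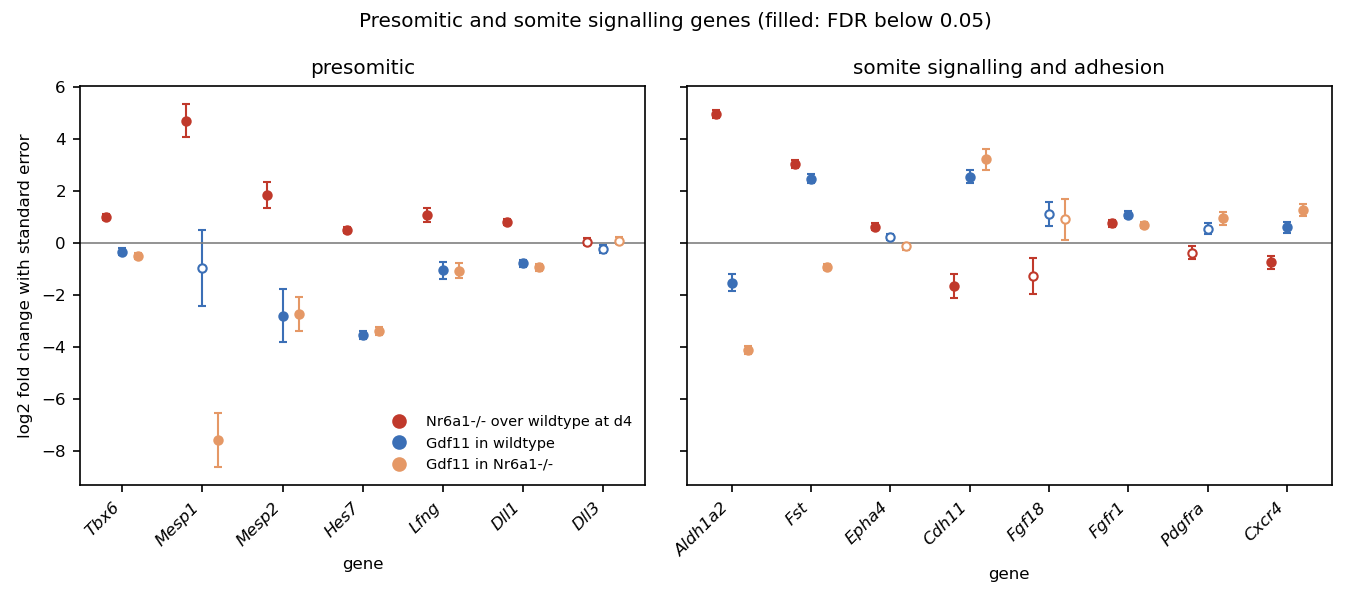
Log2 fold changes with standard errors (vertical axis) of the tested presomitic genes (left) and genes of somite signalling and adhesion (right) for Nr6a1-/- over wildtype at d4 (red), Gdf11 in wildtype (blue) and Gdf11 in Nr6a1-/- cells (orange); filled points passed FDR below 0.05. Aldh1a2 stands at 4.96 at d4 and at -4.11 with Gdf11 in Nr6a1-/- cells.

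Lateral plate genes were lower in Nr6a1-/- cells at d4, where Meox1 was higher, and also at stages before Meox1 rose. Their sum was 10.4 to 15.3 CPM in wildtype and 3.27 to 4.09 CPM in Nr6a1-/- libraries at d2. At d3 it was 14.29 to 19.65 CPM in wildtype and 5.94 to 9.97 CPM in Nr6a1-/- libraries. Of 9 lateral plate and limb genes 4 were tested, and 3 were lower (against 9.17% of all tested genes) and 0 higher in Nr6a1-/- cells at d4 (3 also without d4 wildtype replicate 2). Of these, Foxf1 (-2.97 ± 0.80, FDR = 0.00764) lies on chromosome 8, and without that chromosome 2 of 3 were called. The list's sum at d4 was 19.0 to 29.5 CPM in wildtype and 7.19 to 9.03 CPM in Nr6a1-/- libraries. Of 4 intermediate mesoderm genes the 1 tested, Lhx1, was higher at d4, with sums of 7.36 to 9.24 and 13.5 to 18.9 CPM, while Pax2 was at or below 0.298 CPM in every d4 library. Feeder fibroblast genes summed to 25.5 to 29.4 CPM in d4 wildtype and 16.9 to 22.8 CPM in d4 Nr6a1-/- libraries, with Lum and Dcn at or below 1.65 CPM. The endothelial sum was 8.22 to 12.6 and 4.33 to 6.88 CPM, with 1 gene called lower of 1 tested, and 0 without d4 wildtype replicate 2 or d4 Nr6a1-/- replicate 3. NMP genes were in part higher at d4 (3 of 5, including T at 133 against 83.1 CPM), and 0 were lower. Of all tested genes, 9.72% were called higher at d4. The counts of called intermediate mesoderm, feeder and NMP genes at d4 were the same without d4 wildtype replicate 2. The part of these cell types in the values of the somite genes was not tested.

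Over the means of the 10 groups, the genes whose log2 levels followed each factor most closely were found by Pearson's r, as a description of 10 points that share stages and libraries. For Meox1 they were Ttk (0.974), Vaultrc5 (0.964) and Gm49138 (0.962), for Tcf15 Nusap1 (0.967), Arhgap32 (0.949) and Uba6 (0.946), and for Foxc1 Slc39a6 (0.984), Lhx1os (0.976) and Smoc1 (0.976). For Pax3 they were Caml (0.965), P4hb (0.961) and Zfp385a (0.96), and for Foxc2 Gm26127 (0.98), Bzw2 (0.965) and the Notch target Hes5 (0.961). Within the set, Foxc1 and Foxc2 were most alike (0.894), followed by Meox1 and Foxc2 (0.888) and Meox1 and Foxc1 (0.79).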

How the data were processed

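Per the labels and the study's methods, the authors primed polyadenylated RNA with an index and a molecular identifier, amplified pooled samples and aligned the reads with STAR to mm10. The counting tool, annotation, use of strand and collapsing of identifiers are not given in the sources used here. The deposited table gives unscaled read counts as whole numbers for each gene, and 5 further tables of the authors' edgeR fold changes and p-values were not used. All 30 libraries were matched by name, with 0 columns unmatched. Groups were taken from the labels; the study speaks of biological replicates, but nothing says that they came from separate cultures, so p-values measure the spread between these samples.

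A gene was kept if 2 or more libraries of any group exceeded 10 counts and also 2 CPM (12149 of 54134 rows). Counts were scaled by TMM and tested with edgeR 4.0.16 in R 4.3.3 (glmQLFit and glmQLFTest, 2-sided, 1 model of 10 groups, 20 residual degrees of freedom), with Benjamini-Hochberg adjustment over all genes tested. CPM were computed from counts and TMM-scaled library totals. Standard errors were derived as the size of the log2 change over the root of its F statistic. Log2 CPM for the likeness of genes used a prior count of 2. Intervals for ratios of pooled counts were exact binomial (95%). Scripts were tested on simulated data. Positions were taken from GENCODE vM21 for GRCm38, which placed 97.9% of rows.

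The members and gene lists were chosen with earlier results of these data known. Of each list, up to 3 called genes with the largest change and a group mean of at least 10 CPM were named, beside marker genes checked for a label. Alternatives were other scaling, no filter, fewer libraries, thinned counts, a replicate block, DESeq2 1.42.0, leaving out chromosome 8 and leaving out each library; their use on the other gene lists was chosen after seeing the data. No clear pairing by replicate number was seen, as same-numbered libraries correlated in their deviations from group means by -0.111 to 0.163. Such low values cannot exclude a weak pairing.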

Additional observations from a re-analysis of the deposited data

Results flagged for a closer look

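The response of Pax3 to Gdf11 differed between genotypes, by 2.89 on the log2 scale (edgeR FDR = 0.00794), in a test of the difference itself. All 3 Nr6a1-/- libraries were higher at d4G than any at d4, whereas the wildtype libraries of d4 and d4G overlapped. The Nr6a1-/- value rests on 4 pooled counts at d4 and 40 at d4G.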

How the results depend on the processing

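Most calls kept their direction and side of the threshold: over the 5 tested genes, 11 comparisons and their alternatives, 751 values kept both, 23 lost a call, 8 gained one and 17 changed sign, the last all for changes that were not called in either analysis. The number of genes of the set called between genotypes at d3 was 0 without the filter, after thinning and with DESeq2. It was also 0 with only the libraries compared, where 1 of the 10 genes passed the filter and Pax3 was not tested. Thinning also left 1 gene called for Gdf11 in wildtype and 0 for the difference in response, at the smallest library total. For the difference from d3 to d4, 1 gene was called without normalisation factors, without the filter, with DESeq2 and with the replicate block. The block, fitted to replicate numbers that share no known origin, called Tcf15 there (1.87, edgeR FDR = 0.0484) and changed no other call among the 5 tested genes. Leaving out 1 library gave 0 to 1 genes at d3, 1 to 2 at d4G, 3 to 4 at d4, 2 to 3 for Gdf11 in wildtype, 3 to 5 from d3 to d4 in wildtype, 3 to 4 in Nr6a1-/- cells and 0 to 1 for the difference between them. Counts for the other comparisons did not move with 1 library left out. Changes of sign came from thinning for Foxc1 at d2 (1.66) and its difference from d3 to d4 (0.13). Leaving out 1 library moved the genotype difference of Foxc1 between -0.78 and 1.28 at d2, between -0.31 and 0.048 at d4G, and between -0.081 (without d3 Nr6a1-/- replicate 1) and 1.45 at d3. In the same way Meox1 at d2.5 lay between -2.05 and 1.74, Tcf15 with Gdf11 in Nr6a1-/- cells between -0.55 and 0.25, and the Foxc1 difference from d3 to d4 between -1.10 and 0.44. The cause was not tested. For genes of other lists named in the text, 904 alternative values kept their call and 45 lost it. Without chromosome 8, Irx3, Cdh11 and Fgfr1 were not tested. A gene with no counts in a library could have been present at up to 0.813 to 1.91 CPM.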
